A study of Homo sapiens with 20 samples.

Results

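The p53 target genes described here are 9 genes listed as targets of the transcription factor p53, whose regulation by p53 was not tested here. The genes are CDKN1A (ENSG00000124762), MDM2 (ENSG00000135679), GADD45A (ENSG00000116717), GADD45B (ENSG00000099860), BTG2 (ENSG00000159388), PLK2 (ENSG00000145632), CCNG1 (ENSG00000113328), TP53INP1 (ENSG00000164938) and PMAIP1 (ENSG00000141682). They were taken by identifier from the 19962 genes of a count table and not by a measured value, but with earlier results of these data known. The table comes from PAR-CLIP of the RNA-binding protein IGF2BP3 in HCT116, a human colorectal carcinoma line in which p53 is known to be wild type. All cells carried the Tet-OsTIR1-PURO genotype, in which the plant F-box protein OsTIR1 is expressed conditionally, and all received 100 µM 4-thiouridine for 15 h. Each of 5 conditions had 3 anti-IGF2BP3 libraries and 1 control IgG library. The conditions were 5 µg/mL tunicamycin (TM) for 1 h or 4 h, DMSO for 4 h as its vehicle, an arsenite condition of 250 µM for 2 h, and PBS for 2 h as the vehicle of the latter. The sample titles name arsenite, whereas the treatment label names sodium arsenate. The library names place PBS and arsenite in set S143, replicates 1 and 2 of DMSO, TM 1 h and TM 4 h in set S142, and their replicate 3 in set S141. The labels do not say whether libraries of a condition came from separate cultures, so p-values measure the spread between these libraries.

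The p53 protein is a transcription factor that is held low by MDM2, a ubiquitin ligase that p53 itself induces, and that accumulates when cells are damaged or stressed. Its targets arrest the cell cycle, aid repair, feed back on p53 or trigger cell death, and several of their mRNAs are short-lived. IGF2BP3 is an oncofetal protein with KH domains that binds mRNAs, mostly in 3′ untranslated regions, and is known for effects on their stability and translation. Tunicamycin blocks N-glycosylation and so stresses the endoplasmic reticulum, while arsenite causes oxidative stress and halts much of translation. In PAR-CLIP cells take up 4-thiouridine, a photoreactive analogue of uridine, ultraviolet light links it to proteins that touch the RNA, and the linked bases appear in the reads as T-to-C conversions. A gene's count is therefore a measure of RNA recovered in the anti-IGF2BP3 libraries, background included. No total RNA library was analysed here, so more mRNA and more binding per mRNA cannot be told apart.

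The authors' clusters, which are stretches of overlapping reads with conversions called in each library separately, covered 8 of the 9 genes. GADD45B held none. The letters below show where reads of each mRNA were found in most libraries. They are the 30 bases centred on the longest stretch that clusters of the most anti-IGF2BP3 libraries shared, written as DNA on the strand of the gene, with the triplet CAT in capitals. CAT is the core of the motif known for IGF2BP proteins. Coordinates are those of the authors' files, in GRCh38.
CDKN1A, chr6:36686167-36686196, plus strand: gtgtggctccttccCATcgctgtcacaggc
MDM2, chr12:68842507-68842536, plus strand: aaaatCATctaCATtgctgtctacaaaaca
GADD45A, chr1:67687827-67687856, plus strand: cctttgtagttactcaagcagttactccct
BTG2, chr1:203308770-203308799, plus strand: ctgtctgtctcagtacaatccaaatttgtc
PLK2, chr5:58454386-58454415, minus strand: acagttcttgactttggacaatccaagagt
CCNG1, chr5:163443686-163443715, plus strand: accaaaaaacttctctgaagcctttctcca
PMAIP1, chr18:59903281-59903310, plus strand: agtgttgatttcttcggtcactacacaacg

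The stretches of CDKN1A, MDM2, BTG2, PLK2, CCNG1 and PMAIP1 lay in clusters of all 15 anti-IGF2BP3 libraries, and that of GADD45A in clusters of 11 of the 12 libraries that had one. CAT stood once in the CDKN1A letters and 2 times in those of MDM2, and in none of the other 5 printed. Over whole cluster sets, CAT on the sense strand was in 47.15% of 1192 central 30-base windows of these genes' clusters and in 55.46% of 364271 such windows of all clusters, while T made up 31.79% and 31.82% of their letters. These shares are descriptions, because clusters of different libraries cover the same letters. The fixed 3-base word also leaves out the base that follows it in the known motif.

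The printed letters lie toward the 3′ end of the gene span in each gene but CCNG1. In CDKN1A, whose RefSeq span runs from 36676463 to 36687332 on chromosome 6, a single region of 1638 bases was found in all 15 libraries and held 99.3% of the gene's 41265 cluster reads. It began 9249 bases from the start of a span of 10870 bases. In BTG2 (chromosome 1, 203305519 to 203309602) a region of 1182 bases, starting 2703 bases into a span of 4084 bases, held 96.6% of 3874 cluster reads. In MDM2 (chromosome 12, 68808172 to 68850686) a region of 1885 bases held 68.3% of 21432 cluster reads, and it ended 35026 bases into a span of 42515 bases. In PMAIP1 (chromosome 18, 59899996 to 59904305) a region of 395 bases held 67.3% of 2933 cluster reads. CCNG1 (chromosome 5, 163437571 to 163457640) had 2 regions present in all 15 libraries, with 42.9% and 24.4% of 3978 cluster reads, and both ended within 7433 bases of the start of a span of 20070 bases. In PLK2 (chromosome 5, 58453982 to 58460086, minus strand) the single region present in all 15 libraries held 47.0% of 2767 cluster reads. Its other regions found in at least 8 libraries held 6.11% to 13.4% each. They lay between 2990 and 5569 bases into a span of 6105 bases. TP53INP1 (chromosome 8, 94925972 to 94949378, minus strand) had 186 clusters with 2129 reads and no region present in all 15 libraries. GADD45A (chromosome 1, 67685201 to 67688334) had 31 clusters with 326 reads, and GADD45B (chromosome 19, 2476127 to 2478257) had a gene count of 49 over the 15 libraries and no cluster. An exon or untranslated region was not assigned, since no transcript annotation of this build was used here. Spans of other genes, namely DINOL at CDKN1A, CPM at MDM2, NUDCD2 at CCNG1 and NDUFAF6 at TP53INP1, overlap these genes. How the counting treated reads in an overlap is not given in the sources used here. Only MDM2 had more cluster reads (21432) than its gene count over the 15 libraries (19510), and the cause was not tested.

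**Figure D1:**
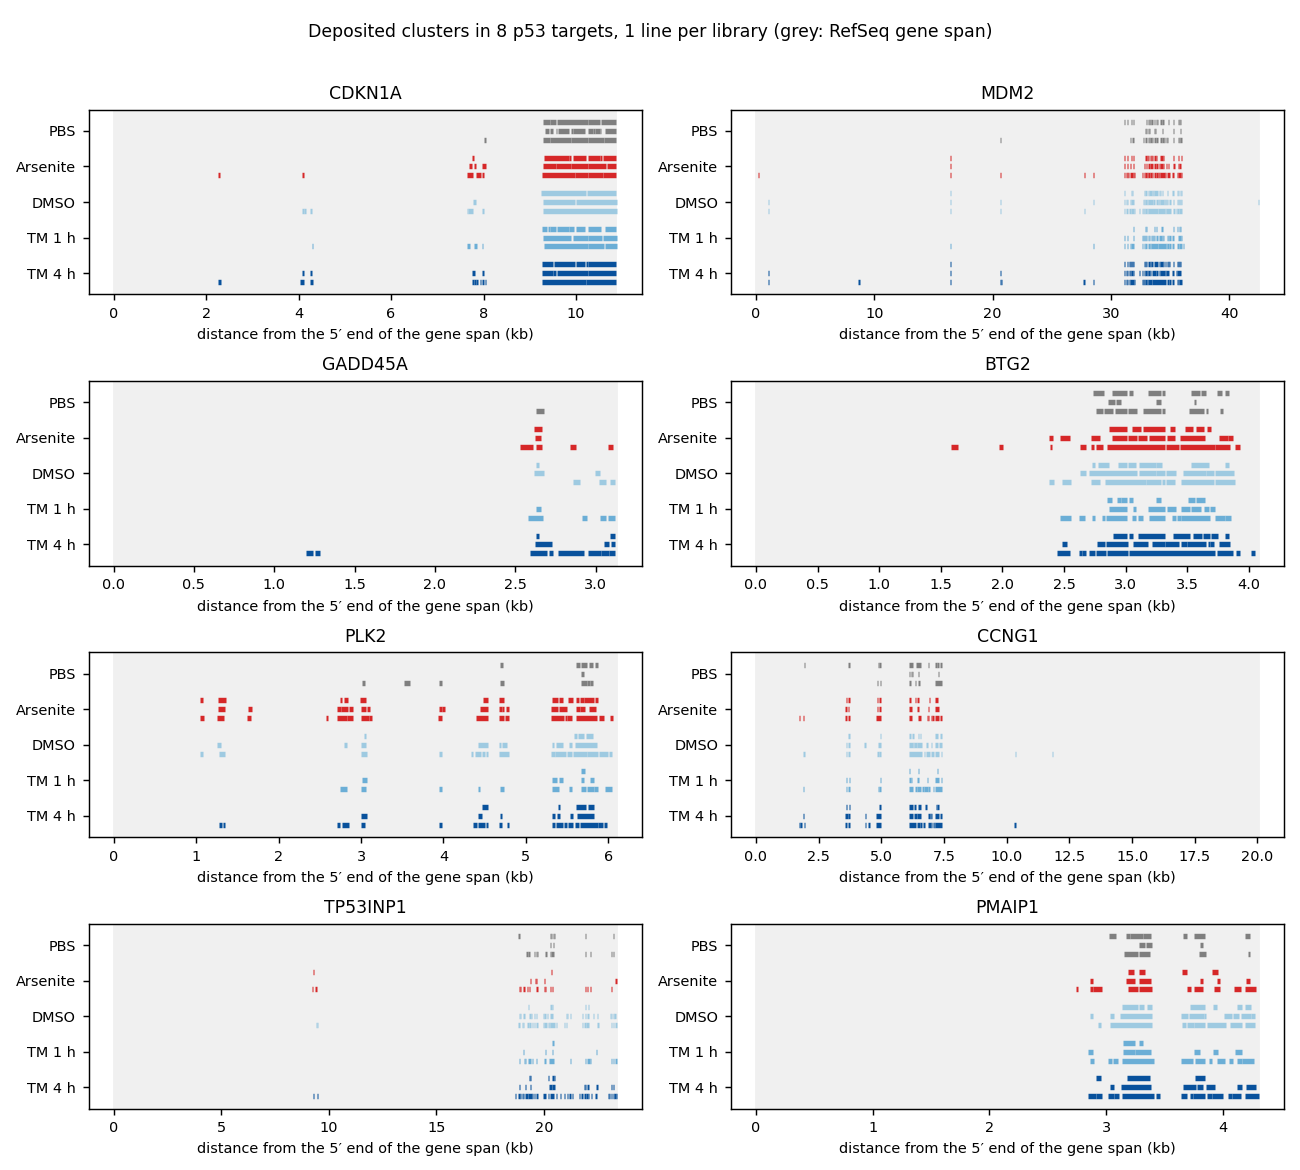
Positions of the deposited clusters in 8 p53 targets, as distance in kb from the 5′ end of the RefSeq gene span (grey), with 1 line per anti-IGF2BP3 library and 3 libraries per condition. In CDKN1A a single region of 1638 bases near the 3′ end held 99.3% of cluster reads, while the clusters of PLK2 and CCNG1 were spread over several regions.

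The 15 anti-IGF2BP3 libraries held 130478 to 1568406 counts, with the smallest being PBS replicate 2, and the 5 IgG libraries 5981 to 17503. The 9 genes together took 0.700% to 0.933% of the counts of each anti-IGF2BP3 library. Colorectal epithelial markers had clusters in unequal numbers of libraries. They were found in 14 for KRT8, 13 for EPCAM, 10 for CDH1, 8 for KRT19 and 4 for KRT18. The intestinal marker CDH17 stood at 0 and VIL1 had a cluster in 1 library. All 8 markers of blood, fibroblasts and endothelium had no cluster. Values per library are given as CPM (counts scaled to a common library size with TMM factors over the 15 anti-IGF2BP3 libraries), and changes as log2 fold changes with the SE from edgeR's quasi-likelihood test, called at a Benjamini-Hochberg adjusted p under 0.05 over all genes tested. Counts were not divided by gene length, so no order of levels between genes is given.

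The pooled antibody share lay within the interval of the IgG share for every target but GADD45A. How many of all genes meet this was not counted, so it is not a trait of these targets. CDKN1A took 221 of 52256 pooled IgG counts, or 0.423% (95% Clopper-Pearson interval 0.369% to 0.482%), and 0.421% of pooled anti-IGF2BP3 counts. The MDM2 share was 0.159% in IgG (0.127% to 0.197%) and 0.190% with the antibody. The interval of the IgG share also held the antibody share for BTG2, PLK2, CCNG1, TP53INP1 and PMAIP1. These intervals are wide, as each gene had only 14 to 25 pooled IgG counts. GADD45A took 0.0211% of IgG counts (0.0105% to 0.0377%) and 0.00613% of antibody counts, from 11 IgG counts. GADD45B was not seen in IgG, where 3 of 52256 counts is the limit of detection. Its antibody share of 0.000477% lay below the upper end of its IgG interval, 0.00706%. All intervals of IgG shares cover counting error only. In edgeR's test of antibody against IgG over all 20 libraries, 2 of the 8 tested targets were called higher with the antibody, against 8.29% of all 7022 genes called in either direction (7.43% higher and 0.854% lower with the antibody). They were CDKN1A, with a log2 difference of 0.63 (SE 0.11, adjusted p = 5.80e-07), and MDM2, with 0.81 (SE 0.16, adjusted p = 3.86e-05). The median of all genes in that test was itself 0.71. Scaled by library totals alone, all genes had a median of 0.09, CDKN1A stood at 0.00 and MDM2 at 0.17. None of the 8 was then called by edgeR, with 1 at an unadjusted p under 0.05 and 1 called by DESeq2 (GADD45A, lower with the antibody at -1.85, adjusted p = 0.0027). Neither the call of CDKN1A nor that of MDM2 held with DESeq2, with library totals, or when the test was kept to genes whose mean count reached 50. In IgG, CDKN1A had 9 clusters with 72 reads, spread over all 5 libraries, and the other 8 genes had none. Those 8 genes had 0 to 83 pooled IgG counts each, and a cluster needs at least 2 reads and 2 conversion positions. At this depth the lack of IgG clusters does not set them apart from the background. The stretch shared by the IgG clusters of CDKN1A is shown because it lies in the same region as the antibody reads of that gene, farther toward the 3′ end.
CDKN1A in IgG, chr6:36687255-36687284, plus strand: tgttctgtgtctttcacagctcctcccaca

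Under arsenite the counts of 5 of these genes changed, and in both directions. Of the 8 targets that passed the filter on low counts, 2 rose (PLK2, BTG2) and 3 fell (CDKN1A, TP53INP1, PMAIP1), so 5 of 8 were called where 34.8% of all 6642 genes were (17.6% higher and 17.1% lower). Calls were more frequent among well-counted genes. Kept to a mean count of at least 50, which leaves out GADD45A, the test called 1380 of 2627 genes and 5 of 7 targets. Whether the targets differ from genes of like depth was not tested. The median log2 change of the 8 was -0.14, beside -0.00 over all genes. After 4 h of tunicamycin GADD45A and CCNG1 rose and none fell, 2 of 8 against 5.11% of 8343 genes called (2.79% higher and 2.31% lower), with medians of 0.01 and 0.00. After 1 h TP53INP1 alone was called, as lower, where 0.551% of genes were called (0.144% higher and 0.408% lower). All 8 log2 estimates at 1 h lay below 0, with a median of -0.26 beside 0.00 over all genes. Between 1 h and 4 h of tunicamycin 4 of 8 rose (GADD45A, CCNG1, TP53INP1, PMAIP1), where 11.6% of genes were called (5.60% higher and 5.99% lower), and the median was 0.30 beside 0.01. At a mean count of at least 50, 42 of 3746 genes and 1 of 7 targets were called at 1 h. At 4 h these numbers were 384 and 1, and between 1 h and 4 h they were 901 and 4. These last 4 included BTG2 (0.28, edgeR adjusted p = 0.022), whereas GADD45A was not tested there. The tests against DMSO share its libraries, and those that involve TM 1 h share that group. DMSO was given for 4 h, so TM 1 h differs from it in time as well. GADD45B, with 0 to 8 counts per library, did not pass the filter on low counts and was not tested beside the other 8. Tested with no filter, it was called in no comparison.

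**Figure D2:**
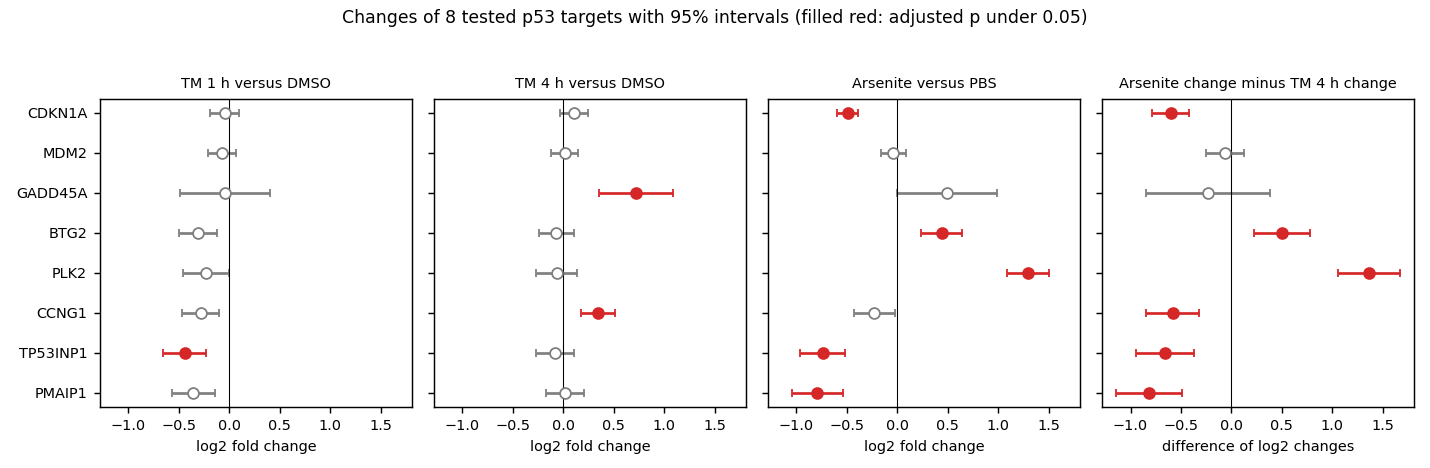
Log2 fold changes (x axis) of the 8 tested p53 targets with 95% intervals from edgeR's fits, for TM 1 h and TM 4 h against DMSO, arsenite against PBS, and the arsenite change minus the TM 4 h change. Filled red points have an adjusted p under 0.05. PLK2 (1.30) and PMAIP1 (-0.79) mark the ends of the arsenite changes, and MDM2 lies near 0 in all 4 panels.

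Among the genes that arrest the cell cycle, CDKN1A encodes p21, the inhibitor of cyclin-dependent kinases through which p53 stops the cycle. Its CPM was 4717, 5149 and 5211 in the PBS libraries and 3614, 3658 and 3418 under arsenite. All 3 arsenite libraries lay below every other anti-IGF2BP3 library. The log2 change was -0.49 (SE 0.052, edgeR adjusted p = 4.82e-15), a level of 0.711 times PBS. In the tunicamycin set CDKN1A stood at 5008, 4364 and 4122 in DMSO, at 4418, 4289.9 and 4338 after 1 h, and at 4716, 5364 and 4418 after 4 h. These 3 groups overlapped, and the changes of -0.05 (SE 0.071) and 0.10 (SE 0.070) were not called, with edgeR adjusted p values of 0.90 and 0.48. Nor was the change of 0.15 (SE 0.071) from 1 h to 4 h called (edgeR adjusted p = 0.18). In order of mean CPM the conditions ran PBS, TM 4 h, DMSO, TM 1 h and arsenite, with overlap of each neighbouring pair but the last.

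BTG2, an antiproliferative factor that recruits the deadenylase complex to mRNAs, moved the other way under arsenite. Its CPM was 351, 437 and 392 in PBS and 442, 568 and 522 under arsenite, so that each arsenite library was above each PBS library, the nearest pair being 437 and 442. The log2 change was 0.44 (SE 0.10, edgeR adjusted p = 2.76e-04). In DMSO it stood at 439, 446 and 469, after 1 h of tunicamycin at 370.1, 359.7 and 370.0, and after 4 h at 441, 388 and 464. The 3 libraries of 1 h lay below all of DMSO, yet the change of -0.31 (SE 0.095) missed the threshold (edgeR adjusted p = 0.16), and at 4 h the groups overlapped. From 1 h to 4 h the change of 0.24 (SE 0.095) was not called (edgeR adjusted p = 0.095). This rise was called at a mean count of at least 50 (0.28, edgeR adjusted p = 0.022). It was also called without TM 4 h replicate 2 (0.30, edgeR adjusted p = 0.041).

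PLK2, a kinase of the polo family that p53 induces, had the highest rise under arsenite of the 8 tested targets. Its CPM was 290.1, 175 and 278 in PBS and 693, 621 and 661 under arsenite, a group that lay above every other anti-IGF2BP3 library. The log2 change was 1.30 (SE 0.11, 95% interval 1.08 to 1.51, edgeR adjusted p = 5.45e-22), or 2.45-fold. The lowest PBS value came from the smallest library, with a PLK2 count of 22. In the tunicamycin set PLK2 ran from 252 to 314 CPM in DMSO, from 227 to 256 after 1 h and from 252 to 326 after 4 h, and neither change was called (-0.23 and -0.06). Nor was the change of 0.17 (SE 0.11) from 1 h to 4 h called (edgeR adjusted p = 0.39).

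GADD45A, which takes part in growth arrest and DNA repair, stood at 65.9, 42.7 and 48.3 CPM in DMSO, at 46.3, 44.4 and 49.8 after 1 h and at 74.2, 89.9 and 78.6 after 4 h of tunicamycin. All libraries of 4 h lay above all of DMSO and of 1 h. The log2 change from DMSO to 4 h was 0.72 (SE 0.18, edgeR adjusted p = 0.0076), and from 1 h to 4 h it was 0.76 (SE 0.20, edgeR adjusted p = 0.0071). The counts behind it were low, from 10 to 122 per library. The call against DMSO was lost with DESeq2 (0.69, adjusted p = 0.13), within library set S142 (0.74, edgeR adjusted p = 0.15), and by edgeR without DMSO replicate 2 (0.61), DMSO replicate 3 (0.70) or TM 4 h replicate 2 (0.64). That against 1 h was lost by edgeR without TM 1 h replicate 3 (0.85, adjusted p = 0.052) and within set S142 (0.89, adjusted p = 0.067). Under arsenite GADD45A stood at 68.5, 70.3 and 79.2 CPM and in PBS at 53.6, 55.6 and 51.0. These groups did not overlap, but with 7 to 84 counts per library the change of 0.49 (SE 0.25, 95% interval -0.01 to 0.99) was not called (edgeR adjusted p = 0.12).

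GADD45B, the related gene, had 3, 0 and 1 counts in the PBS libraries, 2, 8 and 8 under arsenite, 1, 5 and 6 in DMSO, 2, 1 and 2 after 1 h and 2, 6 and 2 after 4 h. No difference between conditions was detectable at this depth.

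**Figure D3:**
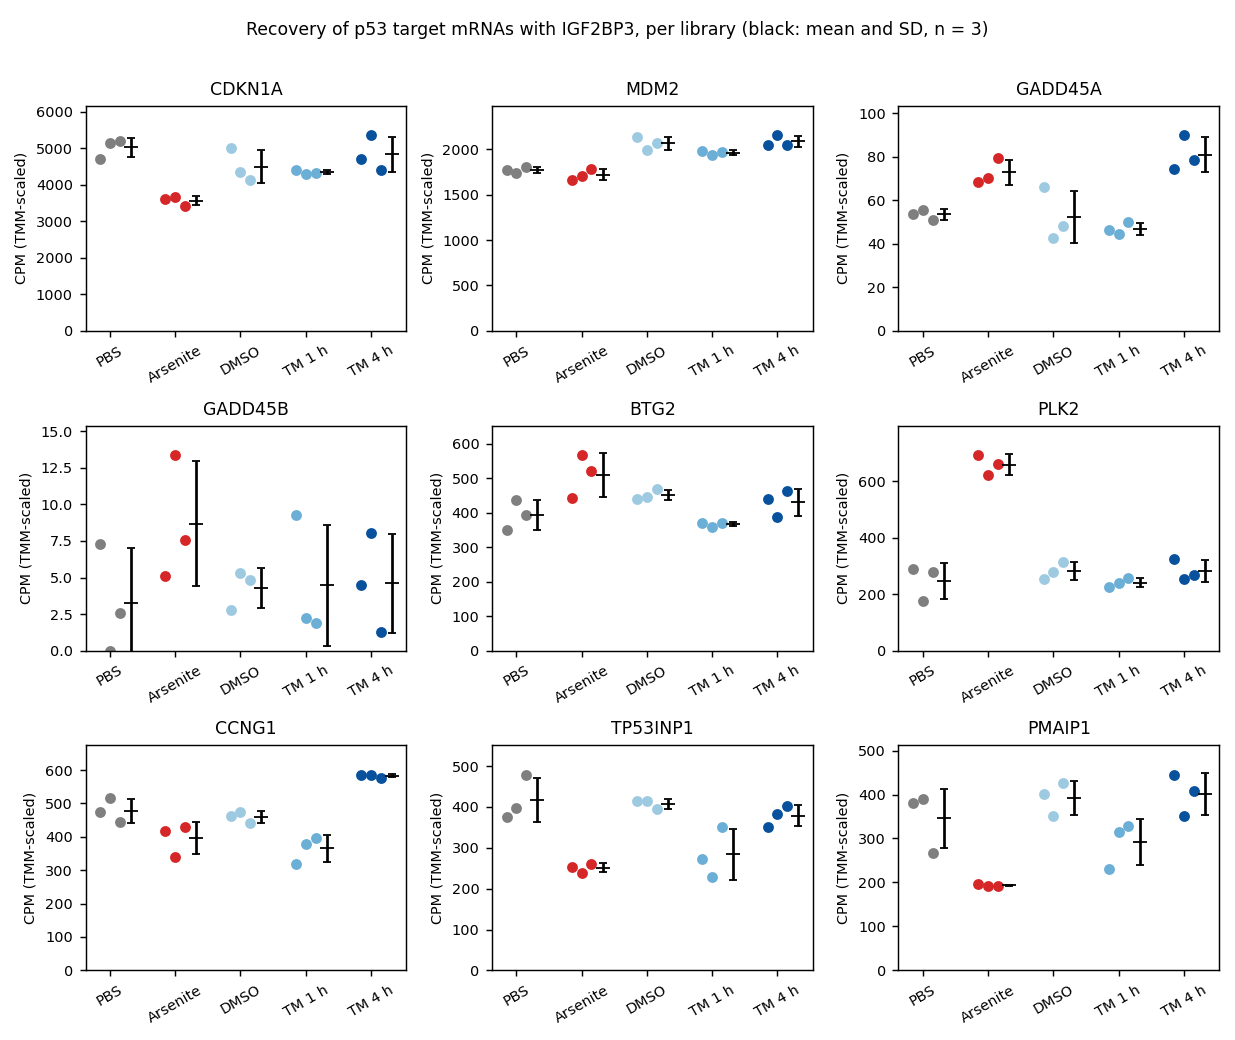
CPM (TMM-scaled, linear axes from 0) of the 9 p53 targets in each of the 15 anti-IGF2BP3 libraries, with 3 points per condition and the mean and SD in black (n = 3). The arsenite libraries lie above all others for PLK2 and below all others for CDKN1A and PMAIP1, and the TM 4 h libraries lie above all others for CCNG1.

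Of the genes that feed back on p53, MDM2 was called in no comparison between conditions. Its CPM was 1767, 1740.1 and 1809 in PBS, 1665, 1709 and 1788 under arsenite, 2135, 1996 and 2067 in DMSO, 1980.1, 1936 and 1976 after 1 h and 2050.1, 2157 and 2052 after 4 h. The SD within a condition was 24.2 to 69.5 CPM. The edgeR estimates had narrow intervals: -0.07 at 1 h (95% interval -0.21 to 0.07), 0.01 at 4 h (-0.12 to 0.15) and -0.04 under arsenite (-0.17 to 0.08). From 1 h to 4 h the estimate was 0.08 (95% interval -0.06 to 0.22). All DMSO libraries lay above all PBS libraries. These vehicles lie in different library sets and were not tested against each other, so vehicle, duration and set cannot be told apart.

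CCNG1 encodes cyclin G1, which recruits a phosphatase to MDM2. Its CPM was 461, 476 and 441 in DMSO, 319, 379.7 and 397 after 1 h of tunicamycin and 584, 586 and 577 after 4 h. The 1 h libraries lay below, and the 4 h libraries above, all 3 of DMSO. At 1 h the change of -0.28 (SE 0.094) was not called (edgeR adjusted p = 0.20). At 4 h it was 0.34 (SE 0.084, edgeR adjusted p = 0.0053), and from 1 h to 4 h it was 0.62 (SE 0.091, edgeR adjusted p = 5.52e-07), or 1.54-fold. Against DMSO the call at 4 h was lost without DMSO replicate 3 (0.31, edgeR adjusted p = 0.077) and within set S142 (0.32, edgeR adjusted p = 0.13). The rise from 1 h to 4 h was as large within set S142 (0.72, edgeR adjusted p = 7.80e-06). In PBS CCNG1 stood at 473, 516 and 443 CPM and under arsenite at 419, 339.9 and 428. The change of -0.23 (SE 0.10) missed the threshold (edgeR adjusted p = 0.069). It was called with library totals as scaling (-0.25, edgeR adjusted p = 0.049998) and without arsenite replicate 3 (-0.31, edgeR adjusted p = 0.038).

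Of the genes tied to cell death, PMAIP1 encodes NOXA, a BH3-only protein that binds the survival factor MCL1. Its CPM was 380.3, 389 and 268 in PBS and 195, 193 and 192 under arsenite, where all libraries lay below every other anti-IGF2BP3 library and had an SD of 1.71. The log2 change was -0.79 (SE 0.13, edgeR adjusted p = 9.51e-08), a level of 0.578 times PBS. In the tunicamycin set it stood at 401, 351 and 426 in DMSO, 231, 315 and 329 after 1 h and 445, 350.1 and 408 after 4 h. All libraries of 1 h lay below DMSO, but the change of -0.36 (SE 0.11) was not called (edgeR adjusted p = 0.13). The rise of 0.37 from 1 h to 4 h was called (SE 0.11, edgeR adjusted p = 0.012). It was lost by edgeR without TM 1 h replicate 1 (0.29), TM 4 h replicate 1 (0.31) or TM 4 h replicate 3 (0.35).

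TP53INP1 encodes a stress protein that promotes phosphorylation of p53 and takes part in autophagy. Its CPM was 375, 397 and 479 in PBS and 254, 239 and 260.3 under arsenite, with no overlap. The log2 change was -0.74 (SE 0.11, edgeR adjusted p = 2.24e-08), a level of 0.599 times PBS. In DMSO it stood at 414, 414 and 394 CPM, after 1 h of tunicamycin at 273, 229 and 352, and after 4 h at 351, 384 and 403. The fall at 1 h was -0.44 (SE 0.11, edgeR adjusted p = 0.028), with all 3 libraries below DMSO and replicate 3, the library of set S141, nearest to it. Within set S142 the fall was -0.76 (edgeR adjusted p = 9.27e-04), and with the library set as a block it was -0.46 (edgeR adjusted p = 0.018). It was not called by DESeq2 (-0.47, adjusted p = 0.37), nor by edgeR without DMSO replicate 1 (-0.43), 2 (-0.42) or 3 (-0.46), or without TM 1 h replicate 1 (-0.41) or 2 (-0.29). From 1 h to 4 h TP53INP1 rose by 0.36 (SE 0.11, edgeR adjusted p = 0.018). That call was lost with DESeq2 (0.37, adjusted p = 0.069) and by edgeR without TM 1 h replicate 1 (0.32), TM 1 h replicate 2 (0.20) or TM 4 h replicate 3 (0.30).

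The stresses were then set against each other by a test of the arsenite change minus the TM 4 h change, each taken against its own vehicle. Of the 8 targets, 6 differed, where 18.3% of 7796 genes did (8.57% with a difference above 0 and 9.74% below 0). Above 0 were PLK2 at 1.36 (SE 0.16) and BTG2 at 0.50 (SE 0.14). Below 0 were PMAIP1 at -0.82 (SE 0.16), TP53INP1 at -0.66 (SE 0.14), CDKN1A at -0.60 (SE 0.094) and CCNG1 at -0.58 (SE 0.13). Of these last genes only CCNG1 was called at TM 4 h against DMSO. The TM 4 h changes of CDKN1A (0.10), TP53INP1 (-0.08) and PMAIP1 (0.02) were not called. The edgeR adjusted p values ran from 1.45e-10 for PLK2 to 0.0067 for BTG2, and BTG2 missed the threshold without PBS replicate 1 (0.44, edgeR adjusted p = 0.053). For MDM2 the difference was -0.06 (95% interval -0.25 to 0.13) and for GADD45A -0.23 (95% interval -0.85 to 0.38), neither called by edgeR. At a mean count of at least 50, 1142 of 3462 genes and 6 of 7 targets were called. The doses, durations and library sets differ along with the stress, so these cannot be told apart.

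Summed over a gene's clusters, the log2 ratio of cluster reads from PBS to arsenite had the sign of the count change for PLK2 (2.20), BTG2 (0.77), CDKN1A (-0.51), PMAIP1 (-0.82), TP53INP1 (-1.02) and CCNG1 (-0.07). For MDM2 it was 0.06, beside -0.04 for the counts, and GADD45A had too few reads for a ratio. Over 1077 genes this ratio had a median of 0.39, where the count change had a median of -0.00. Cluster reads and counts come from the same libraries, so a shared sign is not a separate test. Per 100000 gene counts, reads in the large CDKN1A region were 459 ± 23.3 in PBS, 319 ± 10.4 under arsenite, 417 ± 41.6 in DMSO, 395 ± 3.53 after 1 h and 447 ± 39.7 after 4 h (SD, n = 3). Its share of all CDKN1A cluster reads stayed between 98.7% and 99.9% as a mean over libraries of a condition. In the main MDM2 region the reads were 125 ± 10.3 in PBS, 113 ± 8.09 under arsenite, 155 ± 6.48 in DMSO, 140 ± 12.5 after 1 h and 155 ± 4.42 after 4 h (SD, n = 3). In the main PMAIP1 region they were 17.9 ± 5.78 in PBS and 8.12 ± 0.552 under arsenite (SD, n = 3). PLK2 reads in the region present in all libraries were 8.90 ± 4.83 in PBS and 16.0 ± 1.68 under arsenite (SD, n = 3). That region held 82.7% of PLK2 cluster reads in PBS and 29.7% under arsenite, while a neighbouring region of 264 bases was found in none of the PBS and all of the arsenite libraries. A cluster needs at least 2 reads and 2 conversion positions in these files, and PLK2 had 22 to 119 counts in PBS and 273 to 701 under arsenite. The part of this depth in the spread of clusters was not tested. The PLK2 ratio of cluster reads, 2.20, stands beside 1.30 for its gene counts.

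The share of conversion events, a measure of crosslinking in clusters, had a mean in CDKN1A of 9.42% ± 0.261 with PBS and 9.88% ± 0.314 with arsenite (SD, n = 3), and these groups overlapped. Over all clusters of a library the mean was 8.02% ± 0.0969 with PBS and 8.70% ± 0.0974 with arsenite (SD, n = 3), with no overlap. MDM2 stood at 8.12% ± 0.239 and 8.10% ± 0.0472, and CCNG1 at 7.70% ± 0.336 and 9.21% ± 0.564 (SD, n = 3). In the tunicamycin set CDKN1A stood at 9.34% ± 0.0501 in DMSO, 9.17% ± 0.0450 after 1 h and 9.81% ± 0.509 after 4 h, and MDM2 at 7.94% ± 0.0960, 7.60% ± 0.0916 and 8.35% ± 0.612 (SD, n = 3). Over all clusters these means were 7.83% ± 0.144, 7.73% ± 0.224 and 8.24% ± 0.516 (SD, n = 3). All libraries of CDKN1A and MDM2 lay lower after 1 h than in DMSO, whereas the libraries over all clusters overlapped. From DMSO to 1 h the means of CCNG1 (7.92% and 9.07%) and PMAIP1 (6.43% and 7.18%) went the other way. So did those of TP53INP1 (7.46% and 7.99%) and PLK2 (9.27% and 9.54%). In each of these genes the libraries of DMSO and 1 h overlapped. PLK2 at 1 h stood at 11.61% in replicate 1, with 112 events, and at 8.353% and 8.672% in replicates 2 and 3. Its DMSO libraries ran from 8.728% to 9.705%. TP53INP1 at 1 h stood at 7.143%, 9.868% and 6.952%, with as few as 56 events in a library. No test was made of these shares.

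The genes whose log2 CPM followed CDKN1A most closely over the 15 libraries were ENSG00000198918_8, with a Pearson r of 0.93, and ENSG00000198225_5, with 0.92, out of 3338 genes whose mean count reached 50. Both have no symbol in the tables used here. The libraries share condition and set, so these values are a description.

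Other genes of the p53 pathway were read from cluster reads per 100000 gene counts, without a test, because no table at hand pairs the identifiers of the count table with symbols. Of a list of 47 such genes, those with a mean of at least 50 cluster reads numbered 18 at 1 h of tunicamycin, 23 at 4 h and 14 with arsenite. At 1 h none had all treated libraries above all of DMSO and 2 had all below, where 0.943% and 6.01% of 1696 genes did. At 4 h the counts were 1 above and 1 below (5.78% and 3.68% of 2093 genes), and under arsenite 2 above and 1 below (32.9% and 8.73% of 1077 genes). The list medians of the log2 ratio were -0.38, 0.08 and 0.25, beside -0.27, -0.01 and 0.39 over all genes measured. SESN2, which encodes a sestrin that restrains mTORC1 and is also a target of ATF4, went from 13.5 ± 4.06 in DMSO to 37.2 ± 9.99 after 4 h of tunicamycin and from 8.47 ± 0.937 in PBS to 32.9 ± 2.55 under arsenite (SD, n = 3). PPM1D, the phosphatase WIP1 that turns p53 signalling off, went from 10.4 ± 5.87 in PBS to 27.5 ± 4.58 under arsenite (SD, n = 3). KITLG, the ligand of the receptor KIT, went from 455 ± 24.2 in DMSO to 352 ± 12.8 after 4 h and from 428 ± 54.1 in PBS to 347 ± 7.22 under arsenite (SD, n = 3). After 1 h the secreted factor GDF15 was at 3.06 ± 3.47, beside 9.53 ± 0.808 in DMSO, and the death receptor TNFRSF10B at 37.2 ± 12.6, beside 54.4 ± 2.68 (SD, n = 3). These are the genes whose groups did not overlap among those that reached the minimum of 50 reads in the comparison. Genes below it were not compared. A cluster needs at least 2 reads and 2 conversion positions, so cluster reads can move with library depth. The TM 1 h libraries held 227961 to 1069328 counts, TM 4 h 457179 to 1568406 and DMSO 374238 to 1287291. PBS libraries held 130478 to 423906 and arsenite libraries 414033 to 1098488. The part of depth in these values was not tested.

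**Figure D4:**
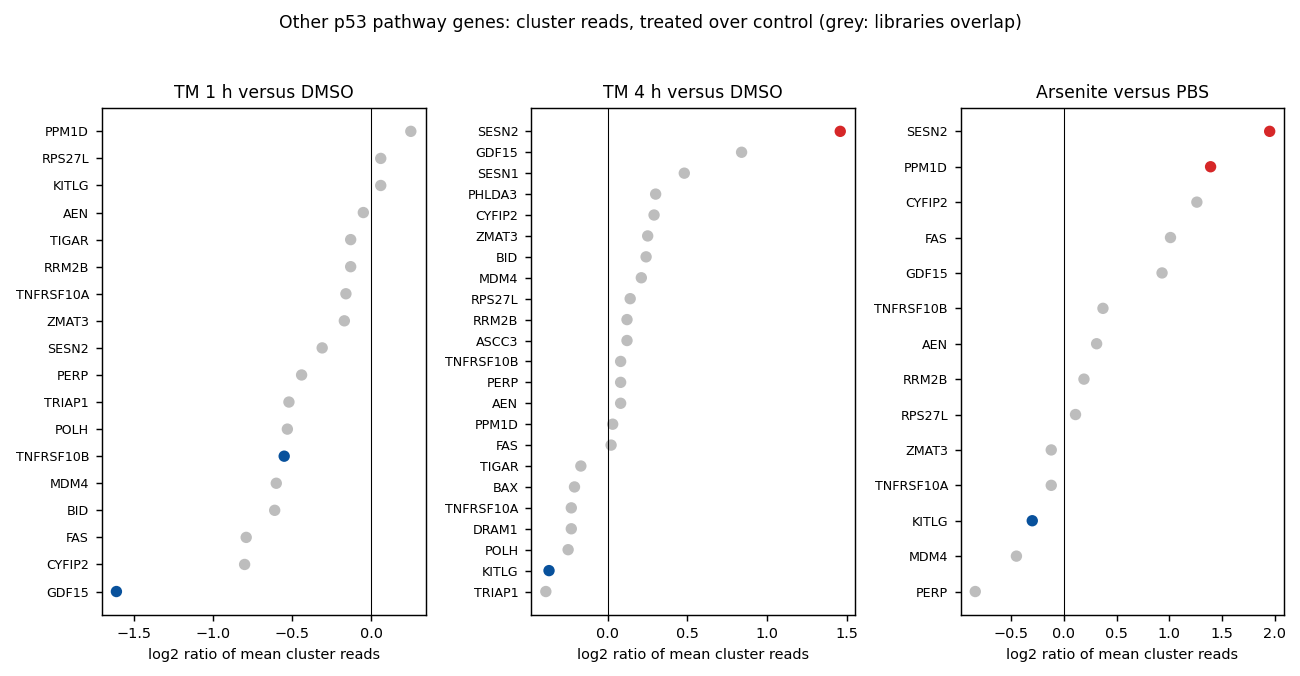
Log2 ratio of mean cluster reads per 100000 gene counts, treated over control, for the genes of the p53 list with a mean of at least 50 cluster reads. Red marks genes whose 3 treated libraries all lie above the 3 controls (SESN2 in 2 panels, PPM1D under arsenite), blue those that all lie below, and grey those that overlap.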

How the data were processed

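PAR-CLIP of IGF2BP3 was measured in 15 libraries of HCT116 cells, with 5 IgG libraries. The authors deposited a table of raw counts per gene and a list of clusters per library; per the submitters' processing notes bcl2fastq 2.20.0.422, UMI-tools 1.1.1, Trimmomatic 0.30, Bowtie 0.12.7 and featureCounts 2.0.1 were used, with builds GRCh38.p13 and hg38. The cluster caller is not given in the sources used here. Per the labels' protocols more than 1 RNase concentration was used, without saying in which library. Groups follow the labels, which give 1 h and 4 h of tunicamycin where the protocol gives 4 h.

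Tests used edgeR 4.0.16 in R 4.3.3 (filterByExpr, TMM factors, two-sided quasi-likelihood test, Benjamini-Hochberg over all genes, threshold 0.05). DMSO, TM 1 h and TM 4 h shared 1 fit, arsenite and PBS another, the difference between stresses came from a fit of arsenite, PBS, TM 4 h and DMSO, and all 20 libraries entered the IgG fit with condition as covariate. The SE is the log2 fold change divided by the square root of F. The scripts were tested on simulated data. The lowest chi-square per gene between replicate libraries was 1.16, so none was counted as a repeat. Clusters were placed by RefSeq gene span and strand. Of 511 clusters inside RefSeq promoter windows, 511 had the same letters at the same position, which ties both to 1 build. The strand of GADD45A and TP53INP1 was taken from most cluster reads. The deposited cluster lists of the PBS and arsenite IgG samples have each other's names, and the assignment to samples was kept. Per the file headers the clusters hold counts of reads and of conversion events. All 9 targets are named in each comparison, and of the p53 list those whose groups did not overlap, which replaced the rule of naming up to 4 called genes when no identifier could be matched to a symbol. The likeness rule named the 2 genes closest to CDKN1A. The targets and lists were chosen with earlier results of these data known. Alternatives were DESeq2 1.42.0, other scalings and filters, blocks and leaving out libraries. Values of the other list genes are not reported here.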

Additional observations from a re-analysis of the deposited data

Results flagged for a closer look

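From 1 h to 4 h of tunicamycin the change of 4 targets differed by edgeR's direct test of TM 4 h against TM 1 h: GADD45A by 0.76, CCNG1 by 0.62, PMAIP1 by 0.37 and TP53INP1 by 0.36 on the log2 scale. For GADD45A and CCNG1 all 3 libraries of 4 h lay above all 3 of 1 h. For PMAIP1 the lowest library of 4 h was at 350.1 CPM and the highest of 1 h at 329, and for TP53INP1, whose groups just overlapped, these values were 351 and 352. Of all genes, 11.6% were called in this comparison, and 901 of 3746 at a mean count of at least 50.

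Between arsenite and 4 h of tunicamycin the changes of 6 targets differed by edgeR's test of the difference itself, at values of 1.36 for PLK2, 0.50 for BTG2, -0.58 for CCNG1, -0.60 for CDKN1A, -0.66 for TP53INP1 and -0.82 for PMAIP1. In this comparison 18.3% of all genes were called, and 1142 of 3462 at a mean count of at least 50.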

How the results depend on the processing

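The call of 5 of 8 targets under arsenite and of 6 of 8 in the difference between stresses stayed within 5 to 6 targets under every alternative run. After 1 h of tunicamycin 0 targets were called with DESeq2 (4 at an unadjusted p under 0.05), and 0 to 1 by edgeR when a library was left out. After 4 h 1 was called with DESeq2, 1 at a mean count minimum of 50, where GADD45A was not tested, 0 within library set S142 (2 at an unadjusted p under 0.05), and 0 to 2 without a library. From 1 h to 4 h the count was 2 to 5 without a library. Against IgG 1 was called with DESeq2, 0 with library totals and 0 at a mean count minimum of 50 (1 and 0 at an unadjusted p under 0.05), and 3 with no filter, where PLK2 was gained (1.12, edgeR adjusted p = 0.044) beside CDKN1A (0.82) and MDM2 (1.01). The cause of these shifts was not tested. With the replicate number as a block, the counts of called targets were 1, 2, 4, 5 and 6, the same as without it, and no call of a target changed. Same-numbered libraries did not deviate together, with correlations of -0.08 to 0.06 over 3746 genes and -0.03 to 0.01 over 2627 genes, so the numbers were not taken to pair libraries. Replicate 3 of the tunicamycin groups shares library set S141. The library set as a block, chosen after seeing the data, changed no call.

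Estimates near 0 changed sign. At 1 h CDKN1A ran from -0.10 to 0.03 and GADD45A from -0.15 to 0.06 without a library, with both highest without DMSO replicate 1 and GADD45A at 0.00 without TM 1 h replicate 2. At 4 h they were MDM2 (-0.02) and PMAIP1 (-0.02) with no filter, MDM2 without DMSO replicate 2 (-0.01) or TM 4 h replicate 2 (-0.02), PMAIP1 (-0.07 to 0.11 without a library, below 0 without DMSO replicate 2 or TM 4 h replicate 1 or 3), and PLK2 without a library (-0.14 to 0.03, above 0 without DMSO replicate 3) or within set S142 (0.07). MDM2 turned to 0.01 with no filter under arsenite and to 0.01 in the difference. Against IgG, BTG2, CCNG1 and TP53INP1 stood at -0.18, -0.11 and -0.28 with DESeq2, at -0.19, -0.11 and -0.27 with library totals and at -0.09, -0.03 and -0.20 at a mean count minimum of 50. The number of regions in all 15 libraries was 10, and 8 to 11 under other merging, read minimum or placement. Depth limits GADD45A, GADD45B, the PBS set and all IgG values.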
